A study of Homo sapiens with 6 samples.

Results

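The subunits of RNase P and RNase MRP were followed in 6 RNA-seq libraries as 10 genes. These were the catalytic RNAs RMRP and RPPH1 and the 8 protein genes POP1, POP4, POP5, POP7, RPP25, RPP30, RPP38 and RPP40. They were chosen by name from 63190 gene identifiers, with earlier results of these data known, and they covered 57 of 207167 annotated transcripts. Total RNA depleted of rRNA was sequenced from HEK293T-Rex cells, a line derived from human embryonic kidney, and 3 libraries came from cells that overexpressed DIS3L2 D391N. This protein is a catalytically inactive form of the cytoplasmic exonuclease DIS3L2, and its transgene is induced with doxycycline. The 3 control libraries came from HEK293T-Rex cells by the study's methods, which the labels give as HEK293 and the series design calls empty, and whether they received doxycycline is not given in the sources used here. Each condition was 1 cell line, so a line effect and the effect of the mutant cannot be told apart. Nothing in the labels says that replicates were separate cultures, and p-values therefore measure the spread between libraries, which may be technical.

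RNase P is the ribonucleoprotein that removes the 5′ leader of precursor tRNAs, and RNase MRP is its relative that cuts precursor rRNA in the nucleolus. In each enzyme the RNA carries the active site: RPPH1, also called H1 RNA, serves RNase P, and RMRP serves RNase MRP. Most protein subunits are shared by both enzymes. RMRP and RPPH1 are made by RNA polymerase III (Pol III), as are U6, Y, vault, 7SK and 7SL RNAs, whereas the protein subunits are translated from ordinary polyadenylated mRNAs.

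Sequences of both catalytic RNAs are shown, that of RPPH1 only in part, because the comparison turns on them and both were lowest in the same library. The sequences are from GENCODE transcripts on GRCh37, minus strand. RMRP is ENST00000363046, chr9:35657751-35658014, 264 nt. This entry held 0.501 to 1.98% of the RMRP level in the libraries. The rest was assigned to ENST00000602361, which is not among the GENCODE transcripts used here. RPPH1 is ENST00000554988, chr14:20811207-20811844, 638 nt, a single-exon entry that the study pairs with the symbol RPPH1, classed as a long non-coding RNA, of which the last 300 nt, chr14:20811207-20811506, are printed. Capitals mark the longest run of bases that both transcripts hold, which was 9 nt.
RMRP: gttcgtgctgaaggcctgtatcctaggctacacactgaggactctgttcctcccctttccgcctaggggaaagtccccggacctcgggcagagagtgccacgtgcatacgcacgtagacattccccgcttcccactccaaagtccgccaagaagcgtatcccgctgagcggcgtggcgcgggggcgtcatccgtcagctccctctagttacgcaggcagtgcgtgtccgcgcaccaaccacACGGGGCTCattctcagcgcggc
RPPH1: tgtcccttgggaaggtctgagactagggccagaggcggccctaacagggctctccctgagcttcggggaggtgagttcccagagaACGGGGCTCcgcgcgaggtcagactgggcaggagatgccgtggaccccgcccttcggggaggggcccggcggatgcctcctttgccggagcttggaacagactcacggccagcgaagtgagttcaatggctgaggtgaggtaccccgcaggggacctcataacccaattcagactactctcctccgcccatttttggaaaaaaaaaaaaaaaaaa

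On the annotated strand, none of the 215 words of 50 nt in ENST00000363046 and none of the 589 words in ENST00000554988 occurred in another of the GENCODE transcripts searched. The other identifiers of both genes were not searched. These are ENST00000602361, which carried most of the RMRP level, and ENST00000516869 for RPPH1. The RPPH1 entry ends in 18 A bases and is 1.87 times as long as the 341-nt RPPH1 of RefSeq. The 300 nt printed cannot hold all of that RNA, and its position in the entry was not determined. RMRP is 270 nt in RefSeq.

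Levels were given as reads per kilobase of transcript, scaled to library size (RPKM), summed over the transcripts of a gene. The comparison was made with limma on log2(RPKM + 0.1) over all genes averaging at least 1 RPKM, and a gene was called at a Benjamini-Hochberg adjusted p under 0.05. Of the 10 subunit genes 9 were tested, RPP25 being too low. None of the 9 was called by limma, beside 29 of 20710 genes over the whole table, which is 0.14%. At an unadjusted p under 0.05 there were 3 of the 9 (RMRP, RPPH1 and POP1), against 22.8% of all genes tested.

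DIS3L2 was read first, as a check of the construct. It stood at 369, 467 and 512 RPKM in D391N and 11.8, 12.9 and 14.6 RPKM in control, a log2 fold change of 5.08. VIM, KRT8 and KRT18, known in HEK293 cells, were at 26.5 to 180 RPKM in all 6 libraries, INA at 11.8 to 15.3 RPKM, PAX2 at 1.31 to 1.93 RPKM and NEFM under 1 RPKM. Genes of other cell types (ALB, PTPRC, HBB and COL1A2) stood at 0.383 to 7.12 RPKM. D391N libraries correlated with each other across genes at r of 0.885 to 0.935 and controls at 0.959 to 0.977, and relative depth differed by up to 1.59-fold between libraries.

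The RNA component of RNase MRP was the most abundant subunit in the controls by deposited RPKM. RMRP stood at 1490, 1750 and 1590 RPKM in the control libraries and at 827, 139 and 422 RPKM in D391N replicates 1, 2 and 3. Every D391N library was below every control, a pattern shown by 20.7% of all genes tested, and the D391N libraries were spread far more widely than the controls. The means were 463 ± 346 RPKM (SD, n = 3) in D391N and 1610 ± 133 RPKM (SD, n = 3) in control. The log2 fold change was -2.14 (SE 0.61), beside a median of -0.09 over all genes tested, with an adjusted p of 0.13 in limma. The exact two-sided permutation test gave p = 0.10, the smallest that 3 libraries against 3 allow.

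RPPH1, the RNA of RNase P, showed the same order of D391N libraries. It stood at 1190, 1090 and 940 RPKM in the controls and at 662, 88.4 and 335 RPKM in D391N replicates 1, 2 and 3. Again no D391N library reached the lowest control, and D391N replicate 2 was lowest. Its means were 362 ± 288 RPKM (SD, n = 3) in D391N and 1070 ± 128 RPKM (SD, n = 3) in control. The log2 fold change was -1.99 (SE 0.68), with an adjusted p of 0.166 in limma and an exact permutation p of 0.10.

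Whether these 2 genes were called depended on 1 library. Without D391N replicate 1, in which both RNAs were closest to the controls, RMRP had a log2 fold change of -2.73 with an adjusted p of 0.0277 in limma. RPPH1 had -2.64 with an adjusted p of 0.0381. In the same setting 10.9% of all genes tested were called, and 7.58% were called lower. Without D391N replicate 2, in which both were lowest, the values were -1.44 for RMRP and -1.18 for RPPH1, and neither gene was called. With the median of each library set equal, the median log2 fold change of all genes moved by 0.22, from -0.09 to 0.13, and RMRP and RPPH1 then had -1.92 and -1.77.

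**Figure D1:**
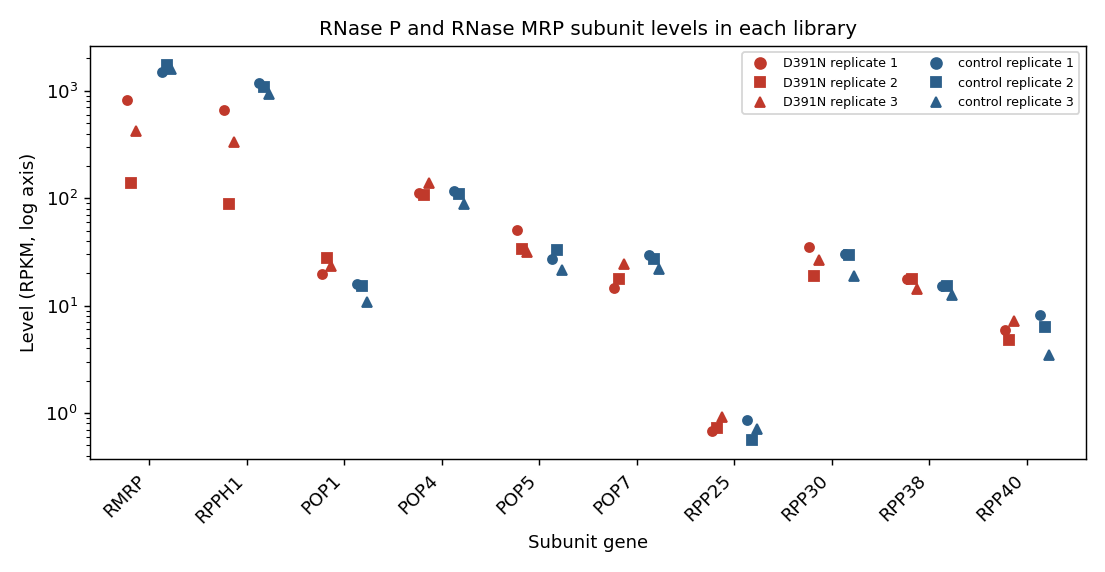
Level of each subunit gene in RPKM (log axis) in the 6 libraries, with D391N in red, control in blue and the marker shape giving the replicate. RMRP and RPPH1 are lower in every D391N library than in every control, POP1 is higher in every D391N library, and the other genes overlap.

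RMRP and RPPH1 kept nearly the same ratio across libraries. RMRP in RPKM was 1.25, 1.57 and 1.26 times RPPH1 in D391N replicates 1, 2 and 3, and 1.24, 1.61 and 1.7 times in the controls. Over the same 6 libraries RMRP itself ranged 12.6-fold and RPPH1 13.5-fold. Which of these RNAs was higher depended on the length used for RPPH1. If its level is given per 341 nt, the RefSeq length, RPPH1 was at 2230, 2040 and 1760 RPKM in the controls and 1240, 165 and 627 RPKM in D391N replicates 1, 2 and 3, above RMRP in each library. The number of reads behind each value, estimated from its posterior variance, was 517 to 13400 for RMRP and 936 to 24100 for RPPH1. Counting error was therefore small beside the spread between D391N libraries.

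Each RNA has 2 gene identifiers in the table. Nearly all of the signal was assigned to 1 of them, ENST00000602361 for RMRP (98.8 to 99.5% in the controls) and ENST00000554988 for RPPH1 (at least 99.7% in the controls). The length of ENST00000602361 is not known here. The other RMRP identifier, ENST00000363046, stood at 7.44, 8.98 and 19 RPKM in the controls and 16.4, 2.65 and 2.24 RPKM in D391N. The other RPPH1 identifier, ENST00000516869, stood at 0.49 to 3.0 RPKM in the controls and 1.14 to 1.87 RPKM in D391N. Taken alone these minor entries had log2 fold changes of -1.21 and -0.11, and both overlapped between conditions. The 3 annotated copies RMRPP5, RPPH1-2P and RPPH1-3P had 0 estimated reads in every library, and adding them to the parent genes left the values at -2.14 and -1.99.

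RMRP and RPPH1 are over 200 nt, and were set beside other Pol III RNAs, first long ones (also over 200 nt) and then short ones. RN7SK, the scaffold RNA of the 7SK particle that holds P-TEFb inactive, was at 14000, 23300 and 13800 RPKM in control and 5700, 1680 and 2970 RPKM in D391N. Its log2 fold change of -2.43 (SE 0.61) was not called (adjusted p 0.113 in limma). It was called without D391N replicate 1 (-2.89, adjusted p 0.027), and the value was -1.51 with quantile normalization. RN7SL1, an RNA of the signal recognition particle, was at 20600, 22200 and 19600 RPKM in control and 17900, 9200 and 10300 RPKM in D391N, a log2 fold change of -0.8. With quantile normalization the value of RN7SL1 turned to 0.04.

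The short Pol III RNAs, U6, U6atac, Y and vault RNAs under 200 nt, had a median log2 fold change of -2.13 over the 12 genes tested. RNU6-7 (-3.52) and RNU6-8 (-3.5) were called lower in limma, and RNY4 had the value nearest to 0 (-0.9), a value that moved to -1.74 when D391N replicate 1 was left out and to -0.07 when D391N replicate 2 was. RNY1, a Y RNA and the most abundant of the list, had -1.61 and overlapped between conditions. Without D391N replicate 1 it was called (-2.74, adjusted p 0.0247 in limma), and without D391N replicate 2 it had -0.82. RNY3 had -1.95 and overlapped between conditions. RNU6ATAC, on 9 to 1380 estimated reads, had -3.07 and was not called (adjusted p 0.153 in limma). It was lower in every D391N library, as were 20.7% of all genes tested. The 5 RNU6 genes are near-identical copies with 0 or 1 estimated reads each, so reads could not be divided among them, and their separate values are uncertain. The adjusted p of RNU6-7 was 0.0466, and its call was kept only with a pseudocount of 1 (0.0379) and without D391N replicate 1 (0.0161). It was lost in every other setting run, such as medians set equal (0.0604), the replicate block (0.11) and any other library left out (0.0798 to 0.226). The adjusted p of RNU6-8 was 0.0282, and its call was lost with the replicate block (0.11), without D391N replicate 3 (0.0994) and without control replicate 1, 2 or 3 (0.188, 0.208 and 0.195). In each library the log2 level of RMRP was set against the median of the short list. RMRP stood 4.23, 4.04 and 5.21 above it in D391N and 3.58, 3.8 and 5.23 above it in control, a difference of 0.29 with an exact permutation p of 0.6. RPPH1 stood 3.91, 3.38 and 4.87 above it in D391N and 3.26, 3.12 and 4.46 in control, a difference of 0.44 with an exact permutation p of 0.5. Adjusted over both RNAs the p was 0.6. The conditions overlapped for both RNAs. The median of the short list fell on RNU6 copies with 0 or 1 estimated reads in every library, together with VTRNA1-3 in control replicate 3. This reference rests on uncertain values, so a difference in response between the long and the short RNAs cannot be decided from it.

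The direction of that difference depended on which short RNAs were used. Against all 1715 tested transcripts under 200 nt of non-coding biotype, which had a median log2 difference of -0.86, RMRP had a difference of -1.35 and RPPH1 of -1.20 (exact permutation p = 0.1 for each). Of these transcripts 906 had a mean of at least 3 estimated reads, and against them the differences were -0.87 and -0.72. Against the median of the 15 Pol II snRNAs under 200 nt the differences were positive, 0.55 for RMRP and 0.71 for RPPH1. There D391N replicate 2 stood highest for both RNAs, at 1.61 and 0.96. Without D391N replicate 3 or control replicate 1 the RMRP value against the short Pol III list was -0.07 or -0.02.

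Short RNAs of RNA polymerase II, by their median, were also lowest in D391N replicate 2. The spliceosomal and U7 snRNAs under 200 nt had a median log2 fold change of -2.53 over 15 genes, with none called in limma, 7 at an unadjusted p under 0.05, and values from -3.57 for RNU1-3 to 0.44 for RNU7-1. The 4 RNU1 genes are near-identical copies with 0 to 5 estimated reads each, so their separate values are uncertain. RNU1-3 had -4.54 without D391N replicate 1 (adjusted p 0.0289 in limma) and -2.37 without D391N replicate 2. RNU7-1 rested on 0 to 9 estimated reads, and its value turned to -0.10 without control replicate 3. RNU4ATAC, with 162 to 959 estimated reads, also had a positive value, 0.25, and overlapped between conditions. RNU12, the most abundant of them on average, had -1.52, and leaving out D391N replicate 2 gave -0.28, leaving out D391N replicate 1 gave -2.33 and quantile normalization gave -0.68. The Pol II structured RNAs over 200 nt had a median of -0.59 over 8 genes, none of them called, with 3 at an unadjusted p under 0.05. Among these TERC, the telomerase RNA, had -1.3 on 3 to 16 estimated reads, and SNORD3B-1, a U3 snoRNA gene, had 0.72. The SNORD3 genes rested on 0 to 29 estimated reads each, so most values behind this median are uncertain. SCARNA7, the most abundant, had -1.23 on 147 to 1280 estimated reads, and SCARNA13 had -1.26 on 94 to 701. With 1 library left out SNORD3B-1 ranged from 0.13 to 1.57, and SCARNA7 had -0.63 without D391N replicate 2. As deviations from the 6-library mean, the 15 snRNAs had medians of 0.77, -3.87 and -0.41 in D391N replicates 1, 2 and 3, and the 12 short Pol III RNAs had 0.66, -2.35 and -1.43. RMRP had 0.11, -2.46 and -0.86, and RPPH1 0.3, -2.6 and -0.68. D391N replicate 2 was thus the lowest library for the short Pol II and Pol III lists and for both RNA subunits. The part that recovery of small RNAs in a library had in the values of RMRP and RPPH1 was not tested.

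**Figure D2:**
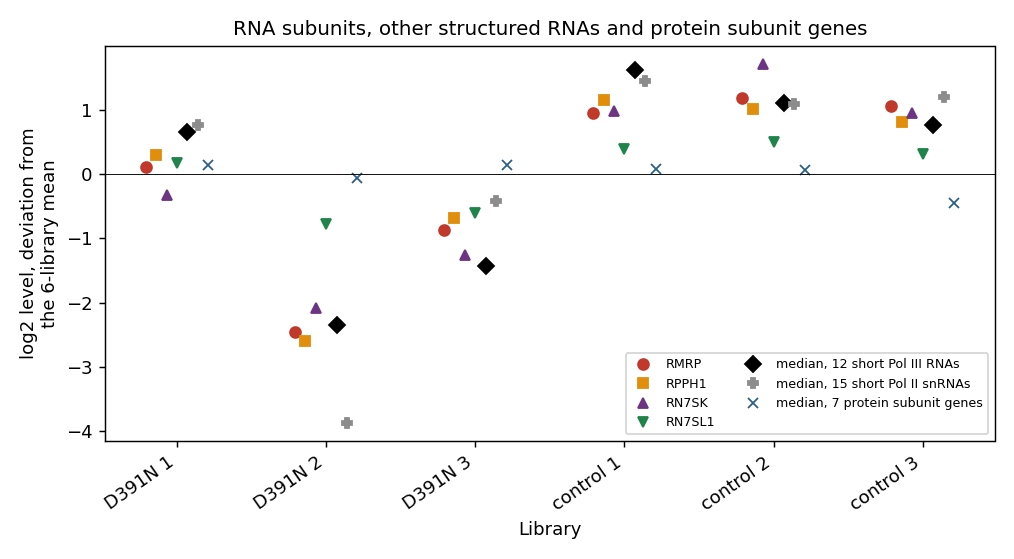
Deviation of the log2 level from the 6-library mean in each library for RMRP, RPPH1, RN7SK and RN7SL1, and the median deviation of 12 short Pol III RNAs, 15 short Pol II snRNAs and 7 protein subunit genes. RMRP and RPPH1 lie close together in every library and are lowest in D391N replicate 2, where the short snRNAs reach -3.87 and the protein subunit genes stay at -0.05.

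The protein genes gave a reference within each library. The log2 level of RMRP stood above the mean of the 8 protein genes by 6.49, 6.84 and 7.11 in control and by 5.67, 3.22 and 4.63 in D391N. For RPPH1 the values were 6.17, 6.16 and 6.34 in control and 5.35, 2.57 and 4.29 in D391N. The differences between conditions were -2.31 for RMRP and -2.16 for RPPH1, and neither RNA overlapped. POP4 was the highest protein gene by summed level. A retained intron entry held 54.7 to 59.9% of that sum in the controls and 45.9 to 50.4% in D391N. RMRP was 12.6 to 18 times POP4 in the controls. In D391N the ratio was 7.36, 1.29 and 3.04, and in replicate 2 RPPH1 was below POP4 with a ratio of 0.82. That order, too, depended on the length used: per 341 nt RPPH1 was at 165 RPKM in D391N replicate 2, above the 108 RPKM of POP4.

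Likeness of other genes to the RNA subunits was taken as the root mean square difference of the log2 deviations over 6 libraries, among all genes tested. For RMRP the closest 5 were ENSG00000264281 (0.07), ENSG00000273420 (0.13), RNU1-13P (0.14), ENSG00000264153 (0.15) and SNORA38 (0.16). For RPPH1 they were SNORA81 (0.07), RPL17P22 (0.18), SNORA12 (0.18), SNORA74A (0.19) and AL662890.3 (0.19). RMRP and RPPH1 themselves differed by 0.19.

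Summed over all annotated transcripts, the protein subunit genes showed no common shift. Their median log2 fold change was 0.18 over the 7 genes tested, beside -0.09 for all genes tested, and none was called in limma. POP1 encodes the largest protein of both enzymes and lies on the plus strand of chromosome 8. It stood at 19.8, 27.7 and 23.3 RPKM in D391N and at 15.8, 15.3 and 10.8 RPKM in control. Each D391N library was above each control, as for 10.5% of all genes tested. The log2 fold change was 0.76 (SE 0.21), with an adjusted p of 0.125 in limma.

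POP7, which pairs with RPP25 to bind the RNA as a dimer, had the lowest value of the protein genes. It stood at 14.6, 17.8 and 24.4 RPKM in D391N and 29.3, 27.1 and 22.1 RPKM in control, a log2 fold change of -0.48 (SE 0.22) with an adjusted p of 0.248 in limma. The groups overlapped, since D391N replicate 3 was above control replicate 3. RPP25, its partner, was at 0.686, 0.733 and 0.913 RPKM in D391N and 0.865, 0.555 and 0.708 RPKM in control, and was the lowest subunit in every library.

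POP5 and RPP30 form a conserved pair that supports catalysis. POP5 stood at 50.1, 33.4 and 31.3 RPKM in D391N and 27.4, 33.1 and 21.3 RPKM in control. Its log2 fold change was 0.48 (SE 0.25), not called, and the groups overlapped. The retained intron entry ENST00000511394 held 44.9 to 68.9% of the POP5 level in D391N and 43.0 to 57.9% in control. The protein-coding POP5 transcript ENST00000357500 had -0.23 and overlapped, and the protein-coding ENST00000341039 was too low to be tested. RPP30 stood at 35.3, 18.7 and 26.7 RPKM in D391N and 30.0, 29.9 and 19 RPKM in control, with a log2 fold change of 0.02 (SE 0.29). Leaving out D391N replicate 1 or control replicate 3 turned the RPP30 value to -0.20.

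RPP38, a kink-turn binding protein, and RPP40 were also without a call. RPP38 stood at 17.7, 17.7 and 14.4 RPKM in D391N and 15.3, 15.2 and 12.6 RPKM in control (log2 fold change 0.21, SE 0.16). RPP40 stood at 5.9, 4.81 and 7.22 RPKM in D391N and 8.21, 6.27 and 3.48 RPKM in control (log2 fold change 0.06, SE 0.34). Both genes overlapped between conditions. RPP40 rested on only 6 to 34 estimated reads a library, and its value turned to -0.28 without control replicate 3.

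POP4, which encodes RPP29, had the highest summed level of the protein subunit genes. It stood at 112, 108 and 139 RPKM in D391N and 118, 110 and 88.7 RPKM in control, a log2 fold change of 0.18 (SE 0.18) with an adjusted p of 0.587 in limma. The gene total thus overlapped between conditions. The retained intron entry ENST00000587232 held 45.9 to 50.4% of this total in D391N and 54.7 to 59.9% in control. The rank of POP4 is therefore not that of its protein-coding transcripts alone.

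In summed RPKM the controls ranked RMRP, RPPH1, POP4, POP5, RPP30, POP7, RPP38, POP1, RPP40 and RPP25 by mean. Ranges of neighbours overlapped between POP5 and RPP30, RPP30 and POP7, and RPP38 and POP1. In D391N the order was RMRP, RPPH1, POP4, POP5, RPP30, POP1, POP7, RPP38, RPP40 and RPP25. There the ranges of RMRP and RPPH1, of RPPH1 and POP4 (which per 341 nt would not overlap), and of all neighbours from POP5 to RPP38 overlapped.

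**Figure D3:**
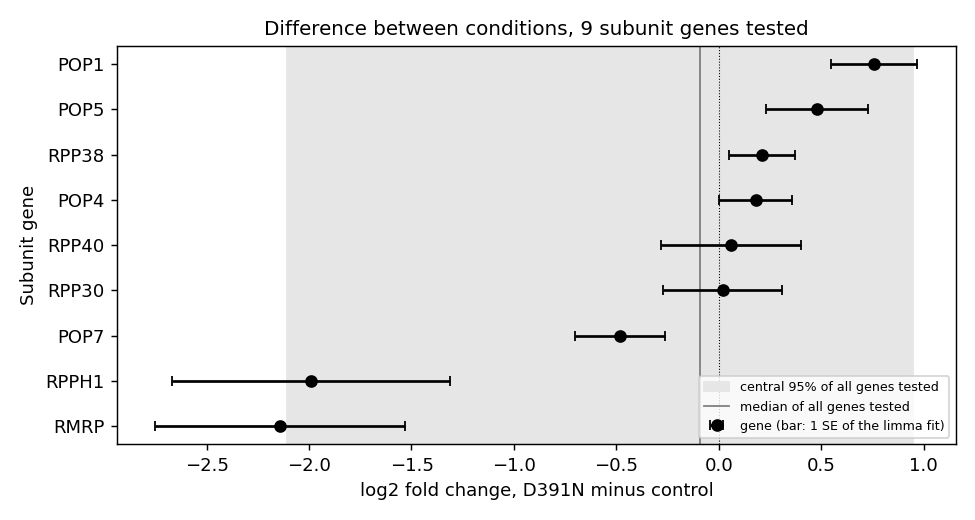
Log2 fold change, D391N minus control, of the 9 subunit genes tested (points, with 1 SE of the limma fit as bars). The grey band spans the central 95% of all genes tested, from -2.11 to 0.95: RMRP lies just below it, at -2.14, and the protein genes lie between -0.48 and 0.76.

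While the POP4 total overlapped, its transcripts had fold changes of opposite sign. At the transcript level 35 of the 57 subunit transcripts were tested, and 1 was called in limma, against 0.0604% of the 54671 transcripts tested. At an unadjusted p under 0.05 there were 11 of the 35, against 17.6% of all transcripts, and 5 of these 11 belonged to POP4. No D391N library overlapped a control for 6 transcripts that were lower (15.6% of all transcripts) and 7 that were higher (10.1% of all).

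The called transcript was ENST00000586420, a protein-coding POP4 transcript of 579 nt. It was listed at 12.9, 11.3 and 11.6 RPKM in control and at 0.688, 0.223 and 0.405 RPKM in D391N. Its share of the POP4 level was 10.2 to 13.1% in the controls. The log2 fold change was -4.57 (SE 0.38) with an adjusted p of 0.029 in limma. The posterior variance in each D391N library was that of a transcript with fewer than 1 estimated read, so the size of this fold depends on the prior of the estimate and is not a measured ratio. Without D391N replicate 1 the number of subunit transcripts called was 7, against 9.07% of all transcripts. The call of ENST00000586420 was lost when D391N replicate 3 (adjusted p 0.0951) or control replicate 1, 2 or 3 (adjusted p 0.161, 0.219 and 0.231) was left out, while the log2 fold change stayed between -4.89 and -4.25.

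ENST00000591061, a POP4 transcript of 502 nt annotated as a target of nonsense-mediated decay, had the opposite direction. It stood at 18.9, 34.5 and 39.3 RPKM in D391N and 6.3, 9.33 and 3.86 RPKM in control, without overlap. Its log2 fold change was 2.25 (SE 0.43), with an adjusted p of 0.11 in limma. ENST00000590688 stood at 16.5, 2.87 and 3.23 RPKM in D391N and 0.512, 0.825 and 0.455 RPKM in control, a log2 fold change of 3.01 with an adjusted p of 0.14. Without D391N replicate 1 ENST00000591061 and ENST00000590688 had log2 fold changes of 2.57 and 2.21 and adjusted p-values of 0.0208 and 0.0336. The controls had at most 1.32 estimated reads of ENST00000590688, so the size of its fold depends on the prior. ENST00000586136 (-2.07) and ENST00000592749 (-1.53) were lower in every D391N library and not called. The most abundant POP4 transcript, ENST00000587232, a retained intron entry of 608 nt, stood at 56.7, 49.5 and 69.0 RPKM in D391N and 70.7, 60.2 and 51.3 RPKM in control (log2 fold change -0.06).

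The junctions that tell these POP4 transcripts apart are shown because so few bases carry the difference. Each line gives 15 nt of the upstream exon in lower case and 15 nt of the downstream exon in capitals, from the GENCODE transcripts on the plus strand of chromosome 19, GRCh37. ENST00000585603 is the full-length protein-coding transcript, which joins position 30101539 to 30102769. ENST00000586420 joins the same exon end to 30102775, a start 6 nt further on. ENST00000591061 ends the upstream exon earlier, at 30101364, and joins it to 30103024, so it lacks the end of that exon and the exon that starts at 30102769.
ENST00000585603: accagagcagcagagATACAGCCTTTTCCT
ENST00000586420: accagagcagcagagCCTTTTCCTCCCTCT
ENST00000591061: gggccttcctgaagcGCAGCCACAGATGAT

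Of the 530 words of 50 nt in ENST00000586420 only 47 occur in no other annotated transcript. ENST00000591061 has 43 such words of 453 and ENST00000590688 has 51 of 478. All other words are shared with other POP4 transcripts, so most 50-nt reads were divided among them by the estimate.

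**Figure D4:**
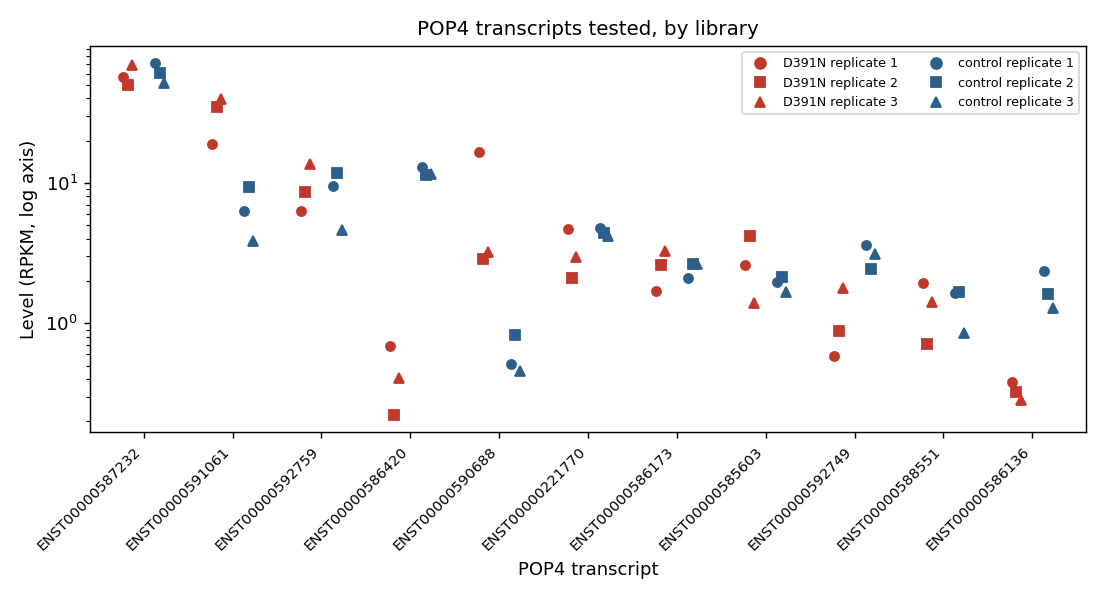
Level in RPKM (log axis) of the 11 POP4 transcripts tested in each library, with D391N in red and control in blue, ordered by mean level. ENST00000586420 is near 12 RPKM in the controls and under 1 RPKM in D391N, ENST00000591061 is higher in every D391N library, and the most abundant transcript overlaps.

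Among the leading transcripts of the other protein genes no call was made. The most abundant POP1 transcript, ENST00000522319 (585 nt), stood at 10.5, 16.3 and 12.2 RPKM in D391N and 6.43, 6.11 and 3.63 RPKM in control (log2 fold change 1.28, adjusted p 0.158 in limma). The full-length POP1 transcripts ENST00000349693 and ENST00000401707 had log2 fold changes of 0.47 and -0.12 and overlapped. The main POP7 transcript, ENST00000303151, stood at 9.55, 9.13 and 12.7 RPKM in D391N and 23.7, 23.0 and 14.6 RPKM in control, a log2 fold change of -0.94 without overlap and an adjusted p of 0.199. The shorter POP7 transcript ENST00000457480 had 0.53. The leading transcripts of POP5 (ENST00000511394, a retained intron entry, 0.7), RPP30 (ENST00000277882, -0.26) and RPP38 (ENST00000378202, -0.37) overlapped between conditions. The leading RPP40 transcript, ENST00000464646, had 1.15, was higher in every D391N library and had an adjusted p of 0.161. The RPP38 transcript ENST00000441850 stood at 1.23, 2.58 and 3.72 RPKM in D391N and 0.298, 0.0938 and 0.872 RPKM in control (log2 fold change 2.5, adjusted p 0.186), with at most 1.1 estimated reads in a control library. RPP25 has 1 transcript, ENST00000322177, below the level needed for the test.

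RPP25L, a paralogue of RPP25, had the lowest value among the other protein genes of RNase P. It stood at 8.57, 2.12 and 4.44 RPKM in D391N and 13.8, 12.1 and 11.6 RPKM in control. The log2 fold change was -1.5 (SE 0.46), with an adjusted p of 0.143 in limma and 0.0267 without D391N replicate 1. RPP14 stood at 17.6, 17.5 and 9.93 RPKM in D391N and 14.7, 15.4 and 14 RPKM in control, a log2 fold change of -0.02 that turned to 0.20 with medians set equal and to 0.12 with quantile normalization. RPP21, at 0.608 to 0.983 RPKM, was too low to be tested and had 0 estimated reads in every library. That estimate does not separate a low level from reads that could not be assigned.

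The protein-only RNase P of mitochondria has no RNA subunit. TRMT10C, its methyltransferase subunit, stood at 40.1, 49.8 and 63.7 RPKM in D391N and 35.1, 31.0 and 26.3 RPKM in control (log2 fold change 0.72, not called). It was called only without D391N replicate 1 (0.88, adjusted p 0.0426 in limma). HSD17B10 had a log2 fold change of -0.61 and PRORP, the nuclease, -0.28, and both overlapped. None of the 3 genes was called in limma, and 1 had an unadjusted p under 0.05.

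Genes of the steps that follow RNase P in tRNA maturation had a median log2 fold change of 0.14 over 14 tested, with none called in limma and 2 at an unadjusted p under 0.05. FAM98B, of the tRNA ligase complex, was highest at 0.86, or 0.18 (adjusted p 0.759) by its leading transcript, and TSEN54, of the tRNA splicing endonuclease, lowest at -0.46. SSB, which encodes the La protein that binds the ends of Pol III transcripts, was the most abundant, with 222, 605 and 574 RPKM in D391N and 242, 267 and 205 RPKM in control. Its log2 fold change of 0.85 was not called, and the groups overlapped through D391N replicate 1. Without that library FAM98B (1.02) and SSB (1.32) were called, with adjusted p-values of 0.0278 and 0.0204 in limma.

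Genes of pre-rRNA processing near the site of RNase MRP and of the 3′ end of the adjoining rRNA had a median of 0.3 over 17 tested. None was called in limma, 5 had an unadjusted p under 0.05, and 9 were higher in every D391N library, against 10.5% of all genes tested. The range ran from -0.12 for PES1 to 0.82 for UTP14A. With medians set equal PES1 turned to 0.10. DDX21, a nucleolar helicase and the gene of this list with the highest level, stood at 161, 224 and 207 RPKM in D391N and 152, 146 and 130 RPKM in control (log2 fold change 0.45). UTP14A was called only without D391N replicate 1 (1.08, adjusted p 0.0267).

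**Figure D5:**
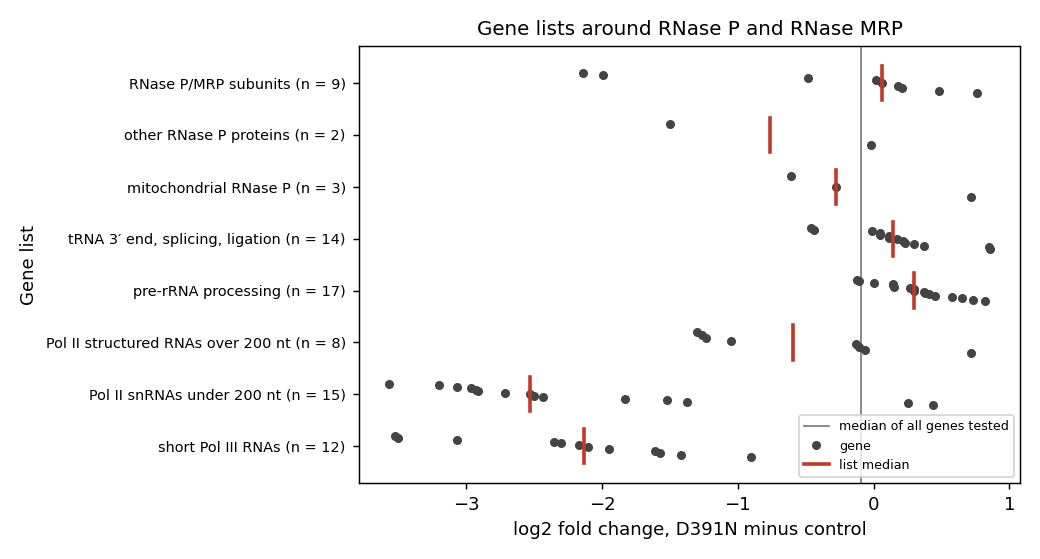
Log2 fold change, D391N minus control, of each tested gene (points) in 8 lists, with the list median in red and the median of all genes tested as a grey line at -0.09. The short Pol III RNAs and Pol II snRNAs have medians of -2.13 and -2.53, and RMRP and RPPH1 lie near them. The medians are -0.76 for the other RNase P proteins and -0.28 for mitochondrial RNase P. The tRNA and pre-rRNA lists have 0.14 and 0.3.

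Genes next to the RNA genes were read as a check of the loci. CCNB1IP1, beside RPPH1, stood at 28.9, 25.2 and 23.4 RPKM in D391N and 49.7, 51.1 and 63.2 RPKM in control, a log2 fold change of -1.08 that was called only without D391N replicate 1 (-1.16, adjusted p 0.0207 in limma). PARP2, which lies on the opposite strand and overlaps the 5′ end of the RPPH1 entry by 71 nt, had -0.08, and turned to 0.14 with medians set equal. Of the 4 neighbours tested none was called in limma, and 1 had an unadjusted p under 0.05.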

How the data were processed

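RNA-seq of rRNA-depleted total RNA from 3 D391N and 3 control libraries was analysed (50-nt single reads). After trimming (cutadapt), the authors mapped reads to Ensembl transcripts of GRCh38 with Segemehl and estimated levels with BitSeq. Deposited values were natural log RPKM, as posterior means, and a posterior variance score for each of 207167 transcripts. BitSeq's own test, which requires posterior samples, was not run.

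Values were exponentiated to RPKM, summed per gene and tested as log2(RPKM + 0.1) with limma 3.58.1 (empirical Bayes with trend, R 4.3.3) on the 20710 genes and 54671 transcripts that averaged 1 RPKM or more. Single values had two-sided exact permutation tests. Python 3.11.15, pandas 2.3.3, numpy 2.4.6, scipy 1.17.1 and matplotlib 3.10.9 were used. The limma step was tested on simulated data. Reads behind a value were estimated from its posterior variance, assuming a flat prior, and cover counting and assignment error only. Library totals were not given by these values.

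RMRP and RPPH1 were matched by the gene name table and by the identifiers the study pairs with these symbols. All members were named, with the leading transcript of each, and from each gene list those with the lowest and highest fold change and the highest level. RNU6-8, RNU6ATAC, RNY3, VTRNA1-3, RNU4ATAC, SCARNA13, RPP14, PRORP and the transcripts at an unadjusted p under 0.05 were named after their values were seen. The members and lists were chosen with earlier results of these data known. Of the lists, BOP1, RN7SL2, RNY5, RNU2-1, SCARNA2 and SCARNA10 had no match. Positions are from GENCODE on GRCh37, whereas the table has none. Alternatives were other pseudocounts, filters and scalings, a replicate block, leading transcripts, other short RNA sets and each library left out. A second identifier alone and short RNAs with at least 3 estimated reads were added after seeing the data.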

Additional observations from a re-analysis of the deposited data

How the results depend on the processing

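Over the alternatives run, RMRP and RPPH1 kept a negative log2 fold change and were called only without D391N replicate 1. With 1 library left out they ranged from -2.73 to -1.44 and from -2.64 to -1.18, the count of subunit genes called from 0 to 2, and subunit transcripts called from 0 to 7. The latter count was 0 at a 5 RPKM minimum and with the replicate block, under which ENST00000586420 kept -4.57 with adjusted p-values of 0.0975 and 0.125. With 1 library left out ENST00000586420 ranged from -4.89 to -4.25. An arm with 2 libraries shares the pooled spread in limma.

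Genes called over the whole table were 29, and 16 with a pseudocount of 0.01, 61 with 1, 6 at a 5 RPKM minimum, 18 with no filter, 14 with median centring, 17 with quantile normalization and 18 with the leading transcript in place of the sum. They ranged from 2 to 2259 with 1 library left out. Transcripts called were 33, and 142 with a pseudocount of 1, 17 at a 5 RPKM minimum, 18 with no filter and 52 without trend, and ranged from 2 to 4961 with 1 library left out. The cause of these moves was not tested. With the replicate number as a block 2 genes and 7 transcripts were called. Deviations of same-numbered libraries correlated at 0.0701, 0.222 and -0.112. Libraries of differing number were not compared, so these values cannot decide whether the numbers mark pairs. The numbers were not taken as pairs in the main fits. The study's methods describe 3 libraries sequenced together in a single lane, and which these were is not stated there.

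Relative to the short Pol III median, leaving out 1 library gave -0.07 to 0.80 for RMRP and 0.03 to 0.87 for RPPH1, and relative to the protein genes -2.89 to -1.67 and -2.80 to -1.41. All short non-coding transcripts as reference gave -1.35 and -1.20, and those with at least 3 estimated reads -0.87 and -0.72. The Pol II snRNAs under 200 nt as reference gave 0.55 and 0.71. Small values changed sign in these settings. With the leading transcript these were POP4 (-0.06), RPP30 (-0.26), RPP38 (-0.37), RPP14 (0.07) and PARP2 (0.11). With median centring they were RPP14 (0.20), PES1 (0.10), PARP2 (0.14) and POP4 ENST00000587232 (0.01). With quantile normalization they were RPP14 (0.12) and RN7SL1 (0.04). With 1 library left out the ranges were -0.20 to 0.26 for RPP30, -0.28 to 0.33 for RPP40, -0.16 to 0.26 for RPP14, -0.10 to 0.80 for RNU7-1, -0.22 to 0.08 for PARP2, -0.80 to 0.28 for RPP30 ENST00000277882 and -0.18 to 0.06 for POP4 ENST00000587232.

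RPP40 rested on 6 to 34 estimated reads a library, and in all 54.9% of transcripts had fewer than 3 estimated reads in every library. Estimates from posterior variance do not separate depth from the assignment of reads.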
